A study of Mus musculus with 35 samples.

Results

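The guanylate-binding proteins are large GTPases of the dynamin superfamily that interferons induce in most cells and most strongly in macrophages. They assemble on bacteria and on the vacuoles that shelter intracellular pathogens, where they open the membrane and expose lipopolysaccharide to caspase-11, the product of mouse Casp4. Their transcription is driven by IRF1 and, in myeloid cells, also by IRF8, through interferon-stimulated response elements in their promoters. The family examined here held 8 of the 49671 genes counted, Gbp2, Gbp3, Gbp4, Gbp5, Gbp6, Gbp7, Gbp8 and Gbp9. They were taken by gene symbol, and the family was selected on a measured value, the fall of Gbp8 with G-NHA9–21FGAA. For that reason every value of the contrast of G-NHA9–21FGAA with the empty vector, and every Gbp8 value that rests on either of those groups, is given below as a description with no test.

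RNA was sequenced from lineage-negative hematopoietic stem and progenitor cells of male and female C57Bl/6 mice that had been transduced with lentivirus, sorted for the fluorescent reporters and grown for 1 week in methylcellulose medium with GM-CSF at 10 ng/mL. Each of the 7 groups had 5 libraries. The control carried a vector with mCherry alone (Empty). The other groups carried mEGFP fused to NUP98-HOXA9, the leukemia fusion that joins the phenylalanine-glycine (FG) rich part of the nucleoporin NUP98 to the DNA-binding homeodomain of HOXA9, and are called here by the names of the study, with the label's spelling in brackets. They were the unaltered fusion G-NHA9 (G-NHX9), G-NHA9–8FA (G-NHX9-8FA) with phenylalanines of FG motifs changed to alanine, G-NHA9Midi (G-NHX9-midi) with a shortened NUP98 part, G-NHA9–21FGAA (G-NHX9-21FGAA) and G-NHA9Midi–21FGAA (G-NHX9-midi-21FGAA) with FG pairs changed to alanines in the longer and the shorter protein, and G-NHA9–ΔDNA (G-NHX9-DDNA), whose homeodomain binds DNA poorly. All constructs were overexpressed from a virus beside the cells' own Nup98 and Hoxa9. The labels give an age of 8 weeks for 32 of the 35 libraries and 9, 10 and 11 weeks for Empty 4, Empty 5 and G-NHA9 1. These 3 follow each other in the labels with ages that rise by 1 week, so the ages are uncertain. Nothing in the labels says which libraries came from separate mice, and the methods describe fewer transductions per virus than there are libraries per group, so p-values measure only the spread between these libraries, which may be technical.

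Libraries held 31559914 to 75810659 counts, and 17166 genes were tested. Levels are given as CPM, the count of a gene scaled to its library's total after TMM normalization, and 3 counts in a library, the limit that a count of 0 allows, came to 0.0382 to 0.0996 CPM. Marker genes of several kinds of myeloid cells were expressed in the cultures. The summed level of 10 genes of late neutrophils ran from 5658 to 33771 CPM over the libraries, that of 12 macrophage and monocyte genes from 1940 to 4575, of 9 mast cell and basophil genes from 509 to 6150, of 11 dendritic cell genes from 746 to 1930 and of 7 eosinophil genes from 42.1 to 2489 CPM. The 4 early neutrophil granule genes summed to 113 to 1813 CPM, 8 erythroid genes to 23.7 to 1669 and 7 stem and progenitor genes to 106 to 534 CPM. Genes within a list differed widely in level. Itgax, Cd74, H2-Aa, H2-Ab1 and H2-Eb1 had medians of 106 to 505 CPM over the 35 libraries. Zbtb46, Xcr1, Clec9a, Batf3, Siglech and Ccr7, also on the dendritic cell list, had medians of 0.0332 to 3.77 CPM. Among the macrophage and monocyte genes C1qa, C1qb and C1qc had medians of 0.0587 to 0.749 CPM, beside 1048 for Mrc1. Of 8 T and NK cell genes, Cd3e and Ncr1 did not exceed 8 counts in any library. Ifng, the gene of the cytokine that most strongly induces this family, did not exceed 6. Gzma, Klrb1c and Cd3d reached 14, 16 and 18 counts, and Cd3g reached 76 counts and 1.61 CPM. Nkg7, a gene of cytotoxic granules, reached 31.8 CPM and had a median of 13.4. The sum of these 8, most of it Nkg7, had a median of 6.30 CPM in G-NHA9Midi, 12.9 in Empty, 17.8 in G-NHA9 and 23.5 in G-NHA9–ΔDNA. Lower RNA of a gene in these bulk libraries may come from fewer cells of a type or from less RNA per cell, and these cannot be told apart.

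The 8 genes lie in 2 clusters of the mm10 (GRCm38) assembly. Gbp5, Gbp7, Gbp3 and Gbp2 follow each other on the plus strand between positions 142493978 and 142638008 of chromosome 3. Gbp8, Gbp9, Gbp4 and Gbp6 lie on the minus strand of chromosome 5 between 105014150 and 105346472, a stretch that also holds Gbp10 and the pseudogene Gbp11. The longest coding sequences of the 4 genes on chromosome 5 were 90.2% to 92.9% identical to each other over the aligned bases, whereas those on chromosome 3 ranged from 64.4% to 78.5% identity among themselves. Gbp8, Gbp9 and Gbp4 are annotated with a shared stretch of 120 to 121 exonic bases on the same strand at about position 105139540. Gbp6 shares 1726 of its 5954 exonic bases with Gm43302, and 37.3% of the 100-base windows of its transcripts occur letter for letter in another Gbp transcript, most of them in Gbp10. For the other 7 members that share was at most 4.39%, the value of Gbp8. How the counting treated reads that match more than 1 gene is not given in the sources used here, so the level of Gbp6 is the least certain.

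Promoter sequences from RefSeq (GRCm38.p6) were found for 4 of the 8 members, all on chromosome 3. They are shown because the interferon-stimulated response element is the sequence through which the family is known to be induced. Correlations of the 6 pairs of these 4 genes were 0.23 to 0.85 across the libraries (median 0.63). For deviations of each library from its group mean they were −0.15 to 0.83 (median 0.30). A part of the element in these values was not tested. The element was searched as GAAA, any 2 bases and GAAA, or on the other strand TTTC, any 2 bases and TTTC, within the 250 bases before the annotated start. Each of the 4 had a match, in the TTTC orientation, and the following windows of 30 bases on the plus strand carry it in capitals.
Gbp5, chr3:142496759-142496788: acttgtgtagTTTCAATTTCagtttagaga
Gbp7, chr3:142530273-142530302: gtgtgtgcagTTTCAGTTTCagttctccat
Gbp3, chr3:142559989-142560018: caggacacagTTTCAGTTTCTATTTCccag
Gbp2, chr3:142620594-142620623: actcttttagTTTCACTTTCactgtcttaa
The match began 165 bases before the start in Gbp5, 53 in Gbp7, 45 in Gbp3 and 59 in Gbp2. In Gbp3 a pair of matches overlapped, and a second annotated start of Gbp3 had none. Gbp2b, in the same cluster but outside the family as defined here, had a match 137 bases before its start. Its counts did not exceed 2 in any library. The window of Gbp2 lies partly inside the first exon of the GENCODE annotation, whose start is further upstream. The match in it lies wholly in that exon. The window of Gbp5 lies between exons of the GENCODE gene, which starts further upstream at 142493978. Those of Gbp7 and Gbp3 lie before the GENCODE starts of their genes. Of all 32851 promoters 2.98% held this element in the same window. A gamma-activated site, searched as TTC, any 3 bases and GAA, which reads alike on both strands, with no overlap with the longer element required, was present in 7.02% of all promoters and, among the members, in those of Gbp5 and Gbp7. These are matches of letters only.

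Measured per kilobase of exon, which allows genes to be compared, the most abundant members in the Empty cultures were Gbp8 at 8.25 CPM per kb, Gbp7 at 8.12 and Gbp2 at 6.99. Gbp3 followed at 1.95 CPM per kb, and Gbp9, Gbp4, Gbp5 and Gbp6 lay between 0.383 and 0.757. In G-NHA9 cultures Gbp7 and Gbp2 led at 10.3 and 8.76 CPM per kb, and Gbp8 stood at 2.33. Gbp2b and Gbp10 never exceeded 3 counts in a library. All 8 members passed the filter on low counts.

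**Figure D1:**
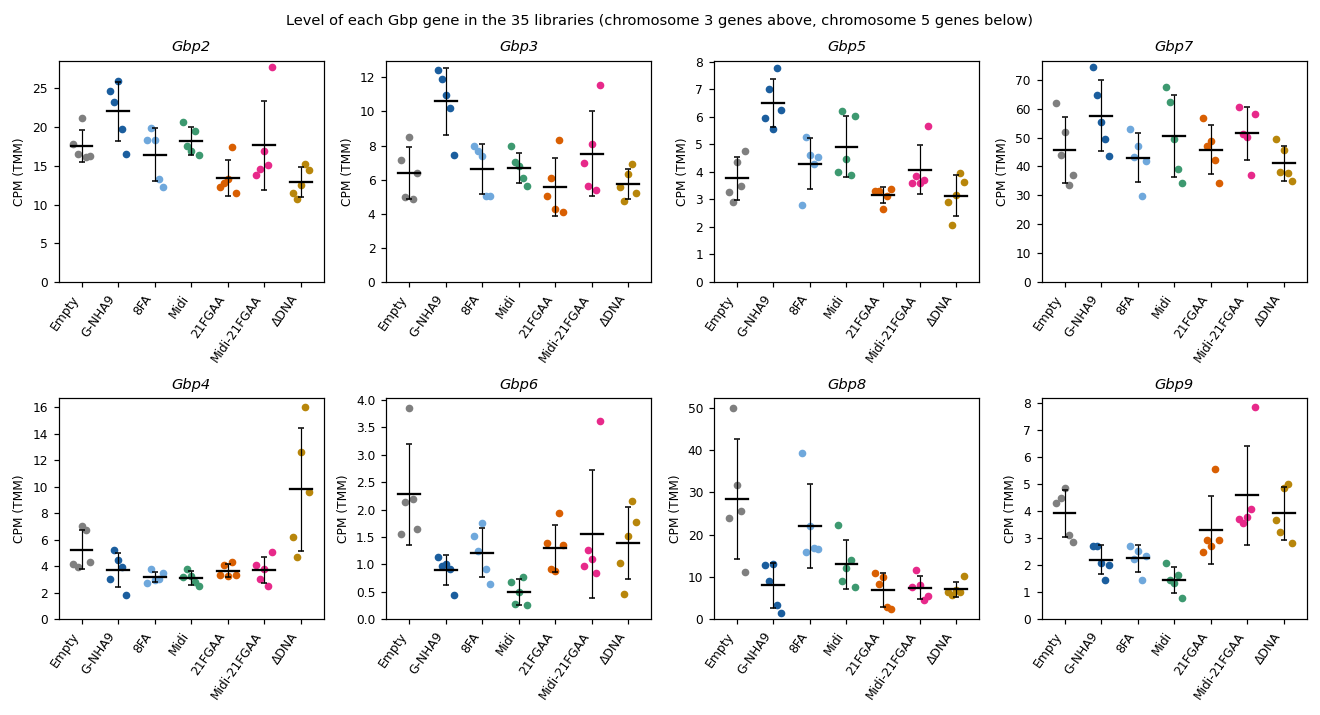
Level of each member in CPM (vertical axes, each starting at 0) in the 35 libraries, by group; each point is a library, the bars are group means and the whiskers 1 SD. Gbp2, Gbp3, Gbp5 and Gbp7 had their highest mean in G-NHA9, Gbp6 and Gbp8 in Empty, Gbp4 in G-NHA9–ΔDNA and Gbp9 in G-NHA9Midi–21FGAA, where a single library stood at 7.85 CPM.

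When the 7 groups were ordered by mean level, the libraries of neighbouring groups overlapped in all 48 neighbouring pairs over the 8 genes. Neighbours in such an order are the groups closest in mean, and the overlap was not computed for other genes. It therefore shows nothing particular to this family. Differences were read between the groups that the design compares. In these comparisons edgeR's quasi-likelihood test was fitted over all genes, and a gene was called at a Benjamini-Hochberg adjusted p under 0.05.

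In G-NHA9 against Empty, 2 of the 7 members other than Gbp8 were higher, beside 16.9% of all tested genes, and 2 were lower, beside 15.2%. The median log2 difference of the 7 was 0.32, and that of all genes 0.01. Of the same 7 in G-NHA9–8FA against Empty, 2 were lower and none higher, where 13.2% of all genes were lower and 13.4% higher. G-NHA9Midi had 3 of the 7 lower than in Empty and none higher, with 20% of all genes lower and 20.5% higher. In G-NHA9–ΔDNA against Empty 1 of the 7 was higher and none lower (9.85% and 7.35% of all genes). In G-NHA9Midi–21FGAA against Empty none of the 7 was called by edgeR or DESeq2 or had an unadjusted p under 0.05, while 9.59% of all genes were higher and 7.32% lower. In the contrast of G-NHA9–21FGAA with Empty, which served to choose the family, 14.7% of all genes were higher and 12.5% lower, and no call of a member is used. These 6 comparisons share the Empty libraries.

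Against G-NHA9, 1 of the 8 members was higher and 2 were lower in G-NHA9–8FA (6.43% and 8.04% of all genes). In G-NHA9Midi against G-NHA9 none was higher and 1 of the 8 was lower (8.5% and 11.2%). G-NHA9–21FGAA had 3 of the 7 members other than Gbp8 lower than in G-NHA9 and none higher (8.34% and 8.91%), with a median of −0.33 beside −0.02 for all genes. In G-NHA9–ΔDNA 2 of the 8 were higher and 3 lower (10.7% and 11.4%), and the median of the 7 members other than Gbp8 was −0.49. In G-NHA9Midi–21FGAA against G-NHA9Midi 2 of the 8 were higher and none lower (21% and 22.2%). A single member is a large share of so small a family, and these counts were not tested against the shares of all genes. The first 4 comparisons of this paragraph share the G-NHA9 libraries.

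**Figure D2:**
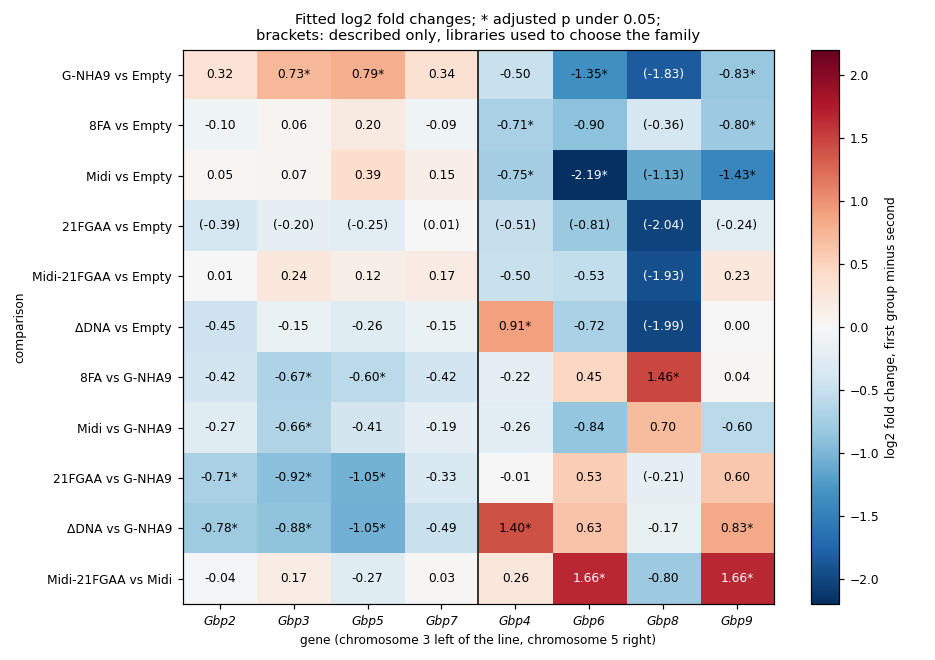
Fitted log2 fold change of each member (columns) in the 11 comparisons between groups (rows), coloured from −2.2 to 2.2, with an asterisk where the adjusted p was under 0.05 and brackets where the value is a description only. In G-NHA9 against Empty, Gbp3 and Gbp5 on chromosome 3 were higher (0.73 and 0.79) and Gbp6 and Gbp9 on chromosome 5 lower (−1.35 and −0.83).

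Gbp5, at chr3:142493978-142522344, carries a lipid-modified tail and is known for promoting inflammasome assembly. Its level was 5.98, 7.0, 5.57, 7.76 and 6.24 CPM in the G-NHA9 libraries and 3.29, 2.92, 4.34, 3.49 and 4.77 CPM in Empty. Every G-NHA9 library was above every Empty library. The log2 difference was 0.79 ± 0.18 (SE, edgeR adjusted p = 0.00095), a 1.73-fold rise, and it held when any single library was left out. Compared with G-NHA9, Gbp5 was lower in G-NHA9–8FA, with libraries at 2.80 to 5.27 CPM, by −0.60 ± 0.18 (adjusted p = 0.023), a call lost without G-NHA9 4 or G-NHA9–8FA 1 (adjusted p up to 0.083). It was lower also in G-NHA9–21FGAA, at 3.32, 3.29, 2.64, 3.14 and 3.39 CPM, by −1.05 ± 0.18 (adjusted p = 6.1e-05). G-NHA9–ΔDNA, at 2.89, 2.06, 3.15, 3.95 and 3.65 CPM, differed from G-NHA9 by −1.05 ± 0.18 (adjusted p = 4.9e-05). No library of these 3 altered constructs reached the lowest G-NHA9 library. In G-NHA9–ΔDNA the difference from Empty was −0.26 ± 0.18 with a 95% interval of −0.63 to 0.12. Over the 35 libraries Gbp5 ran against the summed mast cell and basophil genes (r = −0.62), whose part in these values was not tested.

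Gbp3, at chr3:142560026-142573209, also had its highest mean in G-NHA9. G-NHA9 libraries held 12.5, 11.9, 11.0, 10.2 and 7.46 CPM and Empty libraries 7.12, 4.98, 8.53, 4.88 and 6.4 CPM. Of the 5 G-NHA9 libraries 4 exceeded the highest Empty library. The log2 difference was 0.73 ± 0.21 (edgeR adjusted p = 0.0064), a call lost without the 3 libraries labelled older than 8 weeks (adjusted p = 0.10). Gbp3 was lower than in G-NHA9 by −0.67 ± 0.21 in G-NHA9–8FA (adjusted p = 0.025) and by −0.66 ± 0.21 in G-NHA9Midi (adjusted p = 0.020). Each of these calls ended without any of several single libraries, among them G-NHA9 1 and G-NHA9 2, with adjusted p up to 0.065 and 0.061, and also without G-NHA9–8FA 4 or 5 and without G-NHA9Midi 5. The first was lost too without the 3 libraries labelled older (adjusted p = 0.051). The difference from G-NHA9 was −0.92 ± 0.21 in G-NHA9–21FGAA (adjusted p = 0.0013) and −0.88 ± 0.21 in G-NHA9–ΔDNA (adjusted p = 0.0018), and these held without any single library.

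Gbp2, at chr3:142620602-142638008, also ends in a lipid-modified tail and restricts Toxoplasma in mouse cells. It measured 24.6, 23.3, 26.0, 19.7 and 16.6 CPM in G-NHA9 against 17.8, 16.5, 21.1, 16.2 and 16.3 CPM in Empty. The groups overlapped, and the log2 difference of 0.32 ± 0.16 was not called (adjusted p = 0.13, interval −0.01 to 0.66), although it was without TMM (0.50, adjusted p = 0.013). Gbp2 was lower than in G-NHA9 by −0.71 ± 0.16 in G-NHA9–21FGAA (adjusted p = 0.0019) and by −0.78 ± 0.16 in G-NHA9–ΔDNA (adjusted p = 0.00065). The libraries of G-NHA9–ΔDNA, at 11.4, 10.7, 12.5, 15.2 and 14.5 CPM, all lay below those of G-NHA9. They also lay below every Empty library, by −0.45 ± 0.16, which was not called (adjusted p = 0.054) and was called by DESeq2 (adjusted p = 0.043) and in the fit of those 2 groups alone (0.025).

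Gbp7, at chr3:142530342-142550149, is known to help assemble the phagocyte NADPH oxidase and was the most abundant of the chromosome 3 members. It measured 74.4, 64.9, 55.6, 49.6 and 43.6 CPM in G-NHA9 and 61.8, 43.9, 51.9, 33.5 and 36.9 CPM in Empty. Both groups spanned a wide range, and libraries of the same replicate number tended to lie high or low together. In the fit used throughout, without the replicate number, Gbp7 was called in none of the 11 comparisons between groups. Without TMM it was called in G-NHA9 against Empty (adjusted p = 0.026) and in G-NHA9–8FA and G-NHA9–ΔDNA against G-NHA9 (0.032 and 0.034), the last pair also with a sex-linked score in the fit (0.028 and 0.029), and G-NHA9–ΔDNA in the fit of those 2 groups alone (0.034). When libraries were blocked by replicate number, G-NHA9 exceeded Empty by 0.35 on the log2 scale (adjusted p = 0.012) and was above G-NHA9–21FGAA, which differed from it by −0.32 (adjusted p = 0.031), and above G-NHA9–ΔDNA, which differed by −0.47 (adjusted p = 0.0014).

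The chromosome 5 members that were called in G-NHA9 against Empty were lower, not higher. Gbp6, at chr5:105270702-105293698, was low throughout, with libraries at 1.56, 2.14, 3.86, 2.19 and 1.65 CPM in Empty and 1.14, 0.973, 1.01, 0.915 and 0.442 CPM in G-NHA9. In G-NHA9Midi it was at 0.678, 0.270, 0.491, 0.776 and 0.268 CPM. Neither construct's libraries overlapped those of Empty. The log2 difference from Empty was −1.35 ± 0.40 for G-NHA9 (edgeR adjusted p = 0.0091) and −2.19 ± 0.42 for G-NHA9Midi (adjusted p = 7.0e-05), which is a 2.54-fold and a 4.57-fold fall. G-NHA9–8FA stood at −0.90 ± 0.39 and was not called (adjusted p = 0.086), but was in the fit of those 2 groups alone (0.047).

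Gbp9, at chr5:105077630-105139539, was also lower than Empty in G-NHA9 and G-NHA9Midi, and in G-NHA9–8FA. Its Empty libraries held 4.29, 4.48, 4.85, 3.12 and 2.85 CPM. Those of G-NHA9 held 2.72, 2.73, 2.09, 1.46 and 2.00 CPM, all below Empty, a difference of −0.83 ± 0.26 (adjusted p = 0.013) that lost its call without G-NHA9 4 (adjusted p = 0.050). G-NHA9–8FA, at 2.7, 2.25, 2.55, 1.44 and 2.35 CPM, differed by −0.80 ± 0.26 (adjusted p = 0.021, up to 0.063 without Empty 3 or G-NHA9–8FA 4). G-NHA9Midi was lowest, at 2.07, 1.44, 1.35, 1.63 and 0.783 CPM and −1.43 ± 0.27 (adjusted p = 5.2e-05). Gbp9 was higher in G-NHA9–ΔDNA than in G-NHA9, with libraries at 3.68, 3.23, 4.88, 5.02 and 2.82 CPM, by 0.83 ± 0.26 (adjusted p = 0.018). That call was lost without G-NHA9 4, G-NHA9–ΔDNA 3 or G-NHA9–ΔDNA 4 (adjusted p up to 0.060). G-NHA9–ΔDNA and Empty had the same mean of 3.92 CPM, and the 95% interval of their log2 difference ran from −0.52 to 0.52. Markers of other cells moved with Gbp9. The mast cell and basophil genes summed to 758 to 1072 CPM in G-NHA9 and 1320 to 3548 in Empty, and the eosinophil genes to 278 to 979 and 1310 to 1801 CPM. Over the 35 libraries Gbp9 followed the first sum at r = 0.80 and the second at r = 0.72, and at 0.47 and 0.01 for deviations from the group means. Gbp6 followed the mast cell and basophil sum at r = 0.53. The part of these cells in the levels of both genes was not tested.

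Gbp4, at chr5:105115767-105139586, had its own highest group mean in the construct that binds DNA poorly. G-NHA9–ΔDNA libraries held 6.18, 4.68, 12.6, 16.0 and 9.59 CPM, Empty libraries 4.20, 3.95, 7.0, 6.71 and 4.35 CPM and G-NHA9 libraries 3.06, 5.2, 4.49, 3.93 and 1.85 CPM. The spread in G-NHA9–ΔDNA was the widest of the 7 groups for this gene (SD 4.6 CPM). The log2 difference was 1.40 ± 0.26 from G-NHA9 (edgeR adjusted p = 0.00013) and 0.91 ± 0.26 from Empty (adjusted p = 0.014). The latter call was lost without G-NHA9–ΔDNA 3 or 4 (adjusted p up to 0.073) and in the fit of those 2 groups alone (0.068). Against Empty, Gbp4 was lower in G-NHA9–8FA by −0.71 ± 0.26 (adjusted p = 0.041) and in G-NHA9Midi by −0.75 ± 0.26 (adjusted p = 0.020). The first of these was lost without any of 6 of the 10 libraries compared (Empty 3 and 4, and G-NHA9–8FA 1, 3, 4 and 5, adjusted p up to 0.11), without TMM (0.055) and with no filter (0.059), and the second without Empty 3, Empty 4 or G-NHA9Midi 5 (up to 0.067). Both were lost without the 3 libraries labelled older (0.12 and 0.070).

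Gbp8, at chr5:105014150-105139540, is one of the less studied members. The values that led to its choice were 23.8, 49.9, 31.6, 25.5 and 11.2 CPM in Empty and 11.0, 8.22, 10.0, 2.97 and 2.32 CPM in G-NHA9–21FGAA, a fitted log2 difference of −2.04 ± 0.46. G-NHA9 libraries held 12.9, 9.03, 13.1, 3.46 and 1.56 CPM, G-NHA9Midi–21FGAA libraries 7.65, 11.6, 8.04, 4.64 and 5.43 CPM and G-NHA9–ΔDNA libraries 6.43, 5.69, 6.99, 6.37 and 10.2 CPM. Against the same Empty libraries these groups stood at −1.83 ± 0.46, −1.93 ± 0.46 and −1.99 ± 0.46. G-NHA9Midi, at 22.2, 9.06, 12, 14 and 7.60 CPM, stood at −1.13 ± 0.45, and G-NHA9–8FA, at 39.2, 15.8, 22, 16.7 and 16.5 CPM, at −0.36 ± 0.44. The level of Gbp8 was thus low also in the unaltered fusion and in the construct that binds DNA poorly, and G-NHA9–21FGAA differed from G-NHA9 by −0.21 ± 0.45. Among the groups not used in the choice, G-NHA9–8FA exceeded G-NHA9 by 1.46 ± 0.45 (edgeR adjusted p = 0.026), with no overlap of libraries. That call was lost in the fit of the 2 groups alone (adjusted p = 0.076) and without G-NHA9 4, G-NHA9 5 or G-NHA9–8FA 1 (up to 0.10). G-NHA9Midi and G-NHA9 differed by 0.70 ± 0.45 (adjusted p = 0.29, interval −0.22 to 1.62), and G-NHA9–ΔDNA and G-NHA9 by −0.17 ± 0.45 (adjusted p = 0.86, interval −1.09 to 0.76).

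The level of Gbp8 was correlated with that of the macrophage and monocyte genes, though the group values did not rank alike. Over the 35 libraries its correlation with the summed level of those 12 markers was r = 0.77, and r = 0.85 for deviations from the group means, as a description over libraries that share groups. Its relation to the stem and progenitor genes was r = −0.68, and −0.34 for deviations from the group means. The macrophage and monocyte sum had a median of 3982 CPM in Empty, 3808 in G-NHA9, 3200 in G-NHA9–21FGAA and 2990 in G-NHA9–ΔDNA, with ranges of 3322 to 4290, 2719 to 4196, 1940 to 3299 and 2899 to 3049 CPM. The median was 3903 in G-NHA9–8FA (3216 to 4472) and 3242 in G-NHA9Midi–21FGAA (2700 to 3638). It was highest in G-NHA9Midi, at 4155 (3771 to 4575), where Gbp8 had a mean of 13.0 CPM beside 28.4 in Empty. Mean Gbp8 was 8.01 CPM in G-NHA9 and 22.1 in G-NHA9–8FA. In G-NHA9 against Empty 5 of these 12 markers were higher and 3 lower, beside 16.9% and 15.2% of all genes, and in G-NHA9–ΔDNA none was higher and 2 were lower, beside 9.85% and 7.35%. In G-NHA9Midi, where the sum was highest, 2 were higher and 7 lower than in Empty, beside 20.5% and 20%. G-NHA9–8FA had 2 higher and 3 lower (13.4% and 13.2%), and G-NHA9Midi–21FGAA none higher and 1 lower (9.59% and 7.32%). The part of these markers in the Gbp8 values was not tested. The 5 genes whose level followed Gbp8 most closely over the 35 libraries, among 12766 genes whose mean reached 1 CPM, were Ubl3 (r = 0.95), Dram2 (0.94), Cd200r1 (0.94), Cmc1 (0.93) and Srr (0.93). The 35 points share the 7 groups.

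The change of FG pairs to alanines was made in the longer and in the shorter protein. In the shorter protein Gbp6 and Gbp9 were higher with the change than without it. Gbp9 libraries held 3.71, 3.57, 3.78, 4.08 and 7.85 CPM in G-NHA9Midi–21FGAA, each above all G-NHA9Midi libraries, a log2 difference of 1.66 ± 0.27 (edgeR adjusted p = 4.8e-06) or 3.17-fold. Gbp6 libraries held 0.963, 1.26, 1.10, 0.848 and 3.62 CPM, again all above G-NHA9Midi, a difference of 1.66 ± 0.41 (adjusted p = 0.0014). The fifth library of G-NHA9Midi–21FGAA stood apart in both genes. Without it the differences were 1.39 for Gbp9 (adjusted p = 4.2e-05) and 1.08 for Gbp6 (adjusted p = 0.023). Gbp8 stood at −0.80 ± 0.45 in this comparison (adjusted p = 0.15, interval −1.71 to 0.12), and no chromosome 3 member was called.

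**Figure D3:**
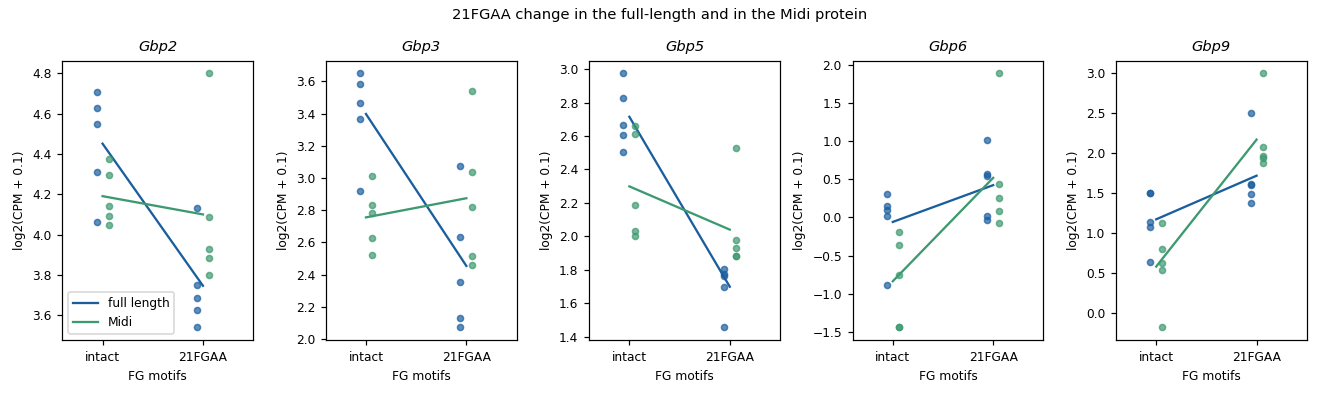
Levels as log2(CPM + 0.1) of 5 members with the FG motifs intact or altered by 21FGAA, in the full-length protein (blue) and in the Midi protein (green); points are libraries and lines join group means. The difference between the effects in the Midi and the full-length protein was called for Gbp3 (1.09) and Gbp5 (0.78) and not for Gbp2 (0.67), Gbp6 (1.13) or Gbp9 (1.06).

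The difference between the 2 effects was tested directly, as the effect of 21FGAA in the Midi protein minus that in the full-length protein. It was positive for Gbp3 by 1.09 ± 0.29 (adjusted p = 0.0098) and for Gbp5 by 0.78 ± 0.25 (adjusted p = 0.038), which made 2 of the 7 members other than Gbp8 higher, with none lower, beside 7.43% of all genes higher and 5.2% lower. The Gbp3 call held without any single library. That of Gbp5 was lost with no filter on low counts (adjusted p = 0.087) and without any of 12 of the 20 libraries (adjusted p up to 0.11), among them G-NHA9 2, 4 and 5, G-NHA9–21FGAA 1 to 4, G-NHA9Midi 1, 3 and 4 and G-NHA9Midi–21FGAA 4 and 5, and without G-NHA9Midi–21FGAA 5 and G-NHA9–21FGAA 4 together it was 0.62 (adjusted p = 0.13). Gbp2, at 0.67 ± 0.23 (adjusted p = 0.054), and Gbp9, at 1.06 ± 0.37 (adjusted p = 0.053), lay just outside the threshold and were called with the replicate block (0.048 and 0.045) and by DESeq2 (0.036 and 0.031). Gbp6 stood at 1.13 ± 0.57 and was not called (adjusted p = 0.22, interval −0.05 to 2.30), with 0.53 in the full-length and 1.66 in the Midi protein. For Gbp9 the sign of each separate effect was positive, 0.60 ± 0.26 in the full-length protein and 1.66 ± 0.27 in the Midi protein.

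The genes around the family in the interferon pathway were followed with lists of regulators, related GTPases, type I interferon targets, inflammasome genes and autophagy genes. Calls of the genes on these lists were not repeated with libraries left out. Ifngr1, a chain of the interferon-gamma receptor, Irf1 and Irf8, transcription factors that act on these promoters, and Nlrc5, an interferon-induced transactivator, had log2 differences of −0.19 to 0.10 in G-NHA9 against Empty, where Gbp3 and Gbp5 rose, and none of them was called there. From the same list Ifngr2 and Jak1 were lower there, by −0.36 ± 0.10 (edgeR adjusted p = 0.0068) and −0.32 ± 0.08 (0.0014). In G-NHA9–21FGAA against G-NHA9 Irf1 was lower by −0.52 ± 0.15 (edgeR adjusted p = 0.012), Irf8 by −0.53 ± 0.12 (0.0013) and Nlrc5 by −0.53 ± 0.14 (0.0069), and in G-NHA9–ΔDNA against G-NHA9 the same 3 were lower by −0.42 ± 0.15 (0.036), −0.36 ± 0.12 (0.026) and −0.43 ± 0.14 (0.025). Ifngr1 was called in neither comparison, at −0.25 ± 0.15 (0.33) and −0.11 ± 0.15 (0.70). Gbp2, Gbp3 and Gbp5 were lower in both comparisons too. A link of these regulators to the levels of the members was not tested, here or in any other comparison. Irf1 rose in G-NHA9Midi by 0.51 ± 0.15 over Empty (0.0052) and was lower in G-NHA9Midi–21FGAA than in G-NHA9Midi by −0.92 ± 0.15 (4.7e-06), together with Ifngr1 by −0.74 ± 0.15 (0.00020), Irf8 by −0.30 ± 0.12 (0.042) and Nlrc5 by −0.54 ± 0.14 (0.0019), in the comparison in which Gbp6 and Gbp9 rose. Irf8 was lower than in Empty in G-NHA9Midi–21FGAA by −0.42 ± 0.12 (0.014) and in G-NHA9–ΔDNA by −0.52 ± 0.12 (0.0032). Over the list of 14 genes of interferon-gamma signalling, 0 were higher and 2 lower in G-NHA9 against Empty by edgeR, beside 16.9% and 15.2% of all genes, and 1 was higher and 7 lower in G-NHA9Midi–21FGAA against G-NHA9Midi, beside 21% and 22.2%. Of the 14, 0 were higher and 4 lower in G-NHA9–21FGAA against G-NHA9, beside 8.91% and 8.34%. In G-NHA9–ΔDNA against G-NHA9 1 was higher and 5 lower, beside 10.7% and 11.4%.

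Most of the 16 type I interferon targets were lower in G-NHA9Midi. Against Empty none was higher and 11 were lower, beside 20.5% and 20% of all genes. The median log2 difference was −1.30 where that of all genes was 0.02. Rtp4 was lower by −2.15 ± 0.56 (adjusted p = 0.0023) and Oas2, which makes the activator of RNase L, by −2.67 ± 0.52 (9.5e-05). Against G-NHA9, 14 of the 16 were lower and none higher, beside 11.2% and 8.5% of all genes. In G-NHA9Midi–21FGAA against G-NHA9Midi 15 were higher and none lower, beside 21% and 22.2%. The median was 1.72, and Stat2, the exception, stood at 0.26 ± 0.32 (0.55). The weight of G-NHA9Midi–21FGAA 5, which was high for several members, in the calls of these 16 genes was not tested. For 10 of the 16 the effect of 21FGAA was called higher in the Midi than in the full-length protein. For none was it called lower, beside 7.43% and 5.2% of all genes. Gbp6 and Gbp9 were likewise lower in G-NHA9Midi than in Empty and higher in G-NHA9Midi–21FGAA than in G-NHA9Midi, but they were not called in G-NHA9Midi against G-NHA9 (−0.84 and −0.60) and were lower already in G-NHA9 against Empty. Gbp2 and Gbp7 were not called in the first pair of comparisons, at 0.05 and 0.15 in G-NHA9Midi against Empty and −0.04 and 0.03 in G-NHA9Midi–21FGAA against G-NHA9Midi. In G-NHA9 against Empty none of the 16 was called by edgeR or by DESeq2 or had an unadjusted p under 0.05. The median there was 0.24, and 16.9% of all genes were higher and 15.2% lower. Markers of several cell types were lower in G-NHA9Midi than in Empty, where 20% of all genes were lower, and higher in G-NHA9Midi–21FGAA. The eosinophil genes summed to 42.1 to 118 CPM in G-NHA9Midi, 1310 to 1801 in Empty and 739 to 2187 in G-NHA9Midi–21FGAA, and 6 of the 7 were lower in G-NHA9Midi than in Empty. The erythroid genes summed to 41.0 to 77.5, 213 to 654 and 456 to 1454 CPM in the same order of groups, with 7 of the 8 lower. The mast cell and basophil genes summed to 509 to 967, 1320 to 3548 and 2638 to 6150 CPM, with 7 of the 9 lower, and the dendritic cell genes to 746 to 1239, 1619 to 1930 and 1320 to 1819 CPM, with 8 of the 10 tested lower. The part of these cell types in the values of Gbp6, Gbp9 and the interferon targets was not tested.

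**Figure D4:**
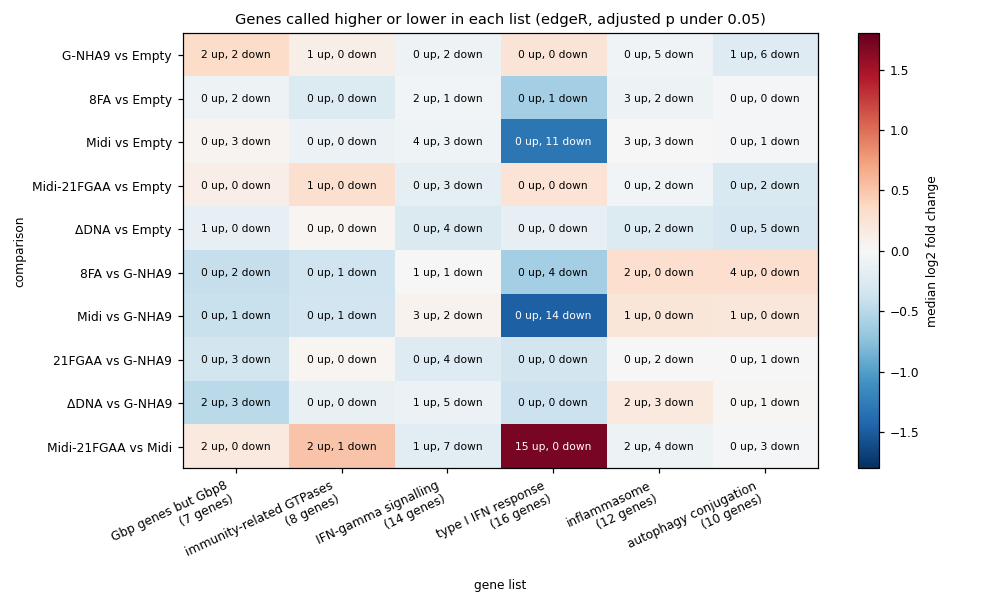
Number of genes called higher (up) and lower (down) in the 7 members other than Gbp8 and in 5 lists (columns), by comparison (rows), coloured by the median log2 fold change of the list. The type I interferon list has 11 genes down in Midi against Empty, 14 down in Midi against G-NHA9 and 15 up in Midi-21FGAA against Midi. Of all tested genes 20%, 11.2% and 21% were called in those directions.

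The immunity-related GTPases act with the guanylate-binding proteins on pathogen vacuoles. Of 8 genes, Ifi47 alone was called in G-NHA9 against Empty, where it was higher, beside 16.9% of all genes higher and 15.2% lower. Irgm1, which keeps the other GTPases off the cell's own membranes, was called in none of the comparisons between groups, with log2 differences from −0.45 to 0.36. The 21FGAA effect on Irgm1 was 0.36 ± 0.17 in the Midi and −0.41 ± 0.17 in the full-length protein, neither called. The difference between them was 0.77 ± 0.24 (adjusted p = 0.030). Irgm1 libraries ran from 28.4 to 64.2 CPM in G-NHA9Midi–21FGAA and from 25.8 to 34.2 in G-NHA9Midi. In G-NHA9Midi–21FGAA against G-NHA9Midi Igtp was higher by 0.68 ± 0.19 (0.0051), with libraries at 17.0 to 41.7 and 15.1 to 16.9 CPM. Tgtp2 was higher by 0.76 ± 0.31 (0.049) and Gvin1 lower by −0.66 ± 0.25 (0.032), beside 21% and 22.2% of all genes. These calls were not repeated without single libraries. Of 12 inflammasome genes, 5 were lower and none higher in G-NHA9 against Empty (15.2% and 16.9% of all genes), among them Aim2, the cytosolic DNA sensor, by −0.38 ± 0.14 (0.040). Casp4, which encodes the caspase that the family delivers lipopolysaccharide to, was higher than in Empty in G-NHA9–8FA by 0.60 ± 0.14 (0.0011) and in G-NHA9Midi by 0.60 ± 0.14 (0.00064), was 0.28 ± 0.14 above it in G-NHA9 (0.13), and was lower in G-NHA9Midi–21FGAA than in G-NHA9Midi by −0.64 ± 0.14 (0.00029). Of 10 genes of the autophagy conjugation system that brings these GTPases to vacuoles, 1 was higher and 6 lower in G-NHA9 against Empty (16.9% and 15.2% of all genes), and 4 were higher and none lower in G-NHA9–8FA against G-NHA9 (6.43% and 8.04%).

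Across the 35 libraries pairs of members within a cluster had a higher median correlation of log2 levels than pairs between clusters. The median was 0.63 over the 6 pairs on chromosome 3 (0.23 to 0.85) and 0.39 over the 6 pairs on chromosome 5. It was −0.008 over the 16 pairs between them. Gbp8 was an exception, at 0.03 with Gbp4, −0.03 with Gbp9 and 0.28 with Gbp6. With chromosome 3 members it stood at −0.17 to 0.23. Without Gbp8 the median on chromosome 5 was 0.51 over 3 pairs. These are descriptions over libraries that share 7 groups. The genes whose pattern was closest to the mean of the 8 members were Ifi204 (r = 0.90), Slfn8 (0.81), Trim30d (0.81), Trim30a (0.79) and Mndal (0.79), which are all known as interferon-induced. Of the relatives outside the family as defined here, the pseudogene Gbp11 was lower in G-NHA9 than in Empty by −1.19 ± 0.32 (edgeR adjusted p = 0.0046), with means of 1.23 and 2.78 CPM.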

How the data were processed

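Total RNA libraries were made by the authors with a stranded kit. The deposited values are raw read counts per gene on mm10, and per the labels the tools were STAR 2.7.0d, HTSeq 0.11.2 and DESeq2. The annotation, the strand setting and the handling of multi-mapped reads are not given in the sources used here. The 49671 gene identifiers were matched to GENCODE M21 without version for 99.3%, which gave positions and exon lengths. All 35 columns were mapped to samples by name.

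Genes were filtered with filterByExpr (17166 kept, holding 99.96% of all counts), scaled by TMM (factors 0.899 to 1.11), and fitted in edgeR 4.0.16 under R 4.3.3 with a mean per group over all libraries (28 residual degrees of freedom). P-values were adjusted over all tested genes within each of 12 comparisons. The fit was tested on simulated data. DESeq2 1.42.0, other filters and scalings, a sex-linked score, the fit of the groups compared, the omission of libraries labelled older and of each library were alternatives. No 2 libraries of a group were alike within counting noise (chi-square per degree of freedom at least 22.5 over 70 pairs). Replicate numbers come from the labels. Libraries of the same number deviated together in 5 of 11 comparisons (all 5 pairs over r = 0.1: against Empty those of G-NHA9, G-NHA9Midi–21FGAA and G-NHA9–ΔDNA, and against G-NHA9 those of G-NHA9–ΔDNA and G-NHA9–21FGAA), with a mean r of 0.23 against −0.06 for other numbers.

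The members, the 5 gene lists and the 10 marker lists were chosen with earlier results of these data known. All 8 members were named, with the receptor, factors and effectors given above and the 5 genes closest in pattern to Gbp8 and to the family mean. Some genes covered by this rule or by the marker lists are not reported here. Intervals and limits cover counting error or the spread between libraries only.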

Additional observations from a re-analysis of the deposited data

Results flagged for a closer look

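In each of 56 sets of 5 libraries (8 members in 7 groups), a library's gap to the nearest other was divided by the range. This was done on log2 CPM with a prior count of 2, whereas the levels below are CPM. In 6 sets the ratio exceeded 0.71, where chance gives about 5% of sets. In 4 of them the library was the fifth of G-NHA9Midi–21FGAA, which was high for Gbp2 (27.8 CPM against 13.8 to 16.9 in the others), Gbp5 (5.67 against 3.58 to 3.84), Gbp6 (3.62 against 0.848 to 1.26) and Gbp9 (7.85 against 3.57 to 4.08). These 4 values come from the same library and are not independent. The fourth library of G-NHA9–21FGAA was high for Gbp9 (5.55 CPM against 2.49 to 2.94), and the fifth of G-NHA9 was low for Gbp6 (0.442 CPM against 0.915 to 1.14).

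The effect of 21FGAA differed between the Midi and the full-length protein by the test of the difference itself for Gbp3 (1.09 on the log2 scale) and Gbp5 (0.78).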

How the results depend on the processing

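No called log2 difference of a member changed sign under any alternative, leaving out single libraries included. Of 2000 values recomputed for single genes, 83 values of 18 differences changed sign, 0 of them called in either fit and none over 0.24 in size, 58 lost and 52 gained a call. In the counts that follow, those for G-NHA9–21FGAA against Empty, and Gbp8 wherever Empty or G-NHA9–21FGAA enters, rest on the values that chose the family and only describe the fit. The shares of all genes called under each alternative are not given here. The counts therefore do not show whether the members moved apart from the other genes. The number of members past the threshold, Gbp8 included, was 2 for G-NHA9–8FA against Empty and 1 with library sizes without TMM, with no filter on low counts or without the 3 libraries labelled older. For G-NHA9–8FA against G-NHA9 it was 3, and 5 without TMM, where the median of all genes stood at −0.12. For the difference between the effects of 21FGAA it was 2, and 4 without TMM, at a mean of at least 1 CPM, with the replicate block, with the sex-linked score and with DESeq2, and 1 with no filter. Without G-NHA9Midi–21FGAA 5 and G-NHA9–21FGAA 4, an alternative chosen after seeing the data, it was 3 in place of 1 for G-NHA9–21FGAA against Empty, 2 in place of 1 for G-NHA9Midi–21FGAA against Empty and 2 in place of 1 for G-NHA9Midi against G-NHA9. The cause of these shifts was not tested. With single libraries left out the counts ranged from 4 to 5 (G-NHA9 against Empty), 0 to 2 (G-NHA9–8FA), 2 to 4 (G-NHA9Midi), 1 to 2 (G-NHA9–21FGAA), 1 to 2 (G-NHA9Midi–21FGAA) and 1 to 3 (G-NHA9–ΔDNA), and against G-NHA9 from 1 to 3 (G-NHA9–8FA), 0 to 1 (G-NHA9Midi), 3 to 3 (G-NHA9–21FGAA) and 4 to 6 (G-NHA9–ΔDNA). They stayed at 2 for G-NHA9Midi–21FGAA against G-NHA9Midi and ranged from 1 to 4 for the difference between the effects. Apart from Gbp7, Gbp2 and Gbp9 where given above, and Gbp7 in G-NHA9–8FA against G-NHA9 (−0.42, adjusted p = 0.0061), the replicate block changed no call. Without TMM the median of all genes shifted by over 0.1 in 6 of the 12 comparisons, by 0.19 in G-NHA9 against Empty, and the order of the 7 group means was kept for 3 of the 8 members and the highest and lowest group for 5. Gbp6, at 0.268 to 3.86 CPM, has the fewest counts and the widest errors.

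The log2 differences that changed sign follow, each first as in the main analysis. The cause of each change was not tested. Gbp9 in G-NHA9–ΔDNA against Empty was at −0.0012, and at 0.14 without TMM, 0.0059 with RLE, 0.016 with no filter, 0.0026 at 1 CPM, 0.028 with the sex-linked score, 0.0012 with only both groups, 0.0060 by DESeq2 and −0.10 to 0.10 with single libraries left out. Gbp9 in G-NHA9–8FA against G-NHA9 was at 0.038, and at −0.090 without TMM and −0.092 to 0.15 with single libraries left out. Gbp4 in G-NHA9–21FGAA against G-NHA9 was at −0.012, and at 0.0024 without TMM, 0.0086 with RLE, 0.025 with no filter, 0.0049 at 1 CPM, 0.0012 with the replicate block, 0.0011 with only both groups, 0.0087 by DESeq2 and −0.16 to 0.17 with single libraries left out. Gbp8 in G-NHA9–ΔDNA against G-NHA9 was at −0.17, and at 0.15 with the replicate block, 0.24 with the sex-linked score, 0.089 without the libraries labelled older and −0.41 to 0.085 with single libraries left out. Gbp3 in G-NHA9Midi against Empty was at 0.068, and at −0.0059 with the sex-linked score, −0.052 without the libraries labelled older and −0.025 to 0.19 with single libraries left out. Gbp8 in G-NHA9–21FGAA against G-NHA9 was at −0.21, and at 0.12 with the sex-linked score, 0.052 without the libraries labelled older, 0.0085 without the pair of libraries named above and −0.45 to 0.050 with single libraries left out. Gbp2 in G-NHA9Midi–21FGAA against G-NHA9Midi was at −0.044, and at 0.0020 with the sex-linked score and −0.25 to 0.031 with single libraries left out. Gbp3 in G-NHA9–8FA against Empty was at 0.057, and at −0.071 without the libraries labelled older and −0.044 to 0.17 with single libraries left out. Gbp2 in G-NHA9Midi against Empty was at 0.050, and at −0.035 without the libraries labelled older. Gbp7 in G-NHA9Midi against Empty was at 0.15, and at −0.068 without the libraries labelled older. Gbp7 in G-NHA9–21FGAA against Empty was at 0.0072, and at −0.18 without the libraries labelled older and −0.075 to 0.16 with single libraries left out. Gbp2 in G-NHA9Midi–21FGAA against Empty was at 0.0058, and at −0.059 without the libraries labelled older, −0.22 without the pair of libraries named above and −0.20 to 0.092 with single libraries left out. Gbp7 in G-NHA9Midi–21FGAA against Empty was at 0.17, and at −0.026 without the libraries labelled older. Gbp7 in G-NHA9–8FA against Empty was at −0.086, and at −0.20 to 0.039 with single libraries left out. Gbp7 in G-NHA9Midi–21FGAA against G-NHA9Midi was at 0.025, and at −0.0072 without the pair of libraries named above and −0.085 to 0.15 with single libraries left out. Gbp5 in G-NHA9Midi–21FGAA against Empty was at 0.12, and at −0.030 without the pair of libraries named above and −0.010 to 0.23 with single libraries left out. Gbp9 in G-NHA9Midi–21FGAA against Empty was at 0.23, and at −0.053 without the pair of libraries named above and −0.033 to 0.33 with single libraries left out. Gbp3 in G-NHA9Midi–21FGAA against G-NHA9Midi was at 0.17, and at −0.024 without the pair of libraries named above and −0.024 to 0.26 with single libraries left out.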

Other observations

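The 2 clusters, which had a median correlation near 0 across all libraries, had a positive one within groups. For deviations of each library from its group mean, the median correlation between a chromosome 3 and a chromosome 5 member was 0.50 over the 16 pairs, from −0.41 to 0.81, and it was 0.30 within chromosome 3 and 0.33 within chromosome 5. Ifi204, a cytosolic DNA sensor of the interferon-inducible p200 family, followed the mean of the 8 members at r = 0.90 for these deviations too. Gbp8 followed Cd200r1, an inhibitory receptor of myeloid cells, at r = 0.92. G-NHA9Midi–21FGAA 5 was the highest library of its group for Gbp2, Gbp3, Gbp4, Gbp5, Gbp6 and Gbp9. G-NHA9–21FGAA 4 was the highest of its group for Gbp2, Gbp3, Gbp4, Gbp6 and Gbp9. The weight of these libraries in the correlations was not tested. All these values are descriptions over 35 libraries and carry no test.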
